A study of Mus musculus with 6 samples.

Results

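The genes described here encode matricellular proteins and matrix glycoproteins, secreted proteins that build the pericellular matrix or tune how cells hold on to it. The list named 10 genes (Fn1, Tnc, Thbs1, Thbs2, Postn, Sparc, Spp1, Fbln1, Fbln2 and Vcan), and every probe set that the platform's annotation gave to exactly 1 of them was taken. This gave 26 probe sets for 9 genes, of 45037 probe sets other than array controls and 18194 annotated genes. No probe set was named Spp1 under this rule, so Spp1 was not analysed here, and 1 probe set that named Thbs1 together with another gene was left out.

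The samples were myoblasts, the dividing precursors of skeletal muscle, taken from the hindlimbs of male mice of strain C57BL/6JRj that were 9 to 15 weeks old. Cells were grown for 72 hours on fibronectin (3 samples) or on collagen I (3 samples), and the comparison asked how the coating changed their expression. Both groups received Ham's F-10 medium with 20% fetal bovine serum, 2.5 ng/ml basic fibroblast growth factor and 1% P/S, and serum itself carries fibronectin. The labels name no transgene, and they do not say whether the samples of a coating came from separate animals or cultures, so the p-values rest on a spread that may be only technical.

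Fibronectin is the adhesive glycoprotein that cells bind through integrins and assemble into fibrils. Matricellular proteins such as tenascin C, the thrombospondins, periostin, Sparc and osteopontin do little structural work; they loosen or modify cell contacts and bind growth factors, and several of them are made during muscle regeneration. Fibulins are glycoproteins that bridge fibronectin, basement membranes and elastic fibres, and versican is a large chondroitin sulfate proteoglycan that binds hyaluronan.

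Values were the deposited log2 signals of an Affymetrix mouse array. Sample medians lay between 2.29 and 2.33 on fibronectin and between 2.35 and 2.38 on collagen I, and the number of arrays limits the precision (median SE of a log2 change 0.065). The lineage factor Myod1 averaged 10.04 ± 0.04 on fibronectin and 10.10 ± 0.03 on collagen I (SD, n = 3 each), and all 6 myoblast markers lay above the brightness filter, a mean log2 signal of 2.32. By the brightest probe set of each gene, 1 of these 6 was higher on fibronectin and 2 were lower. The other 3, Myod1 among them, did not pass the test described below. Of markers of other cells, 0 of 6 endothelial and 0 of 3 adipocyte genes lay above it, and 2 of 7 leukocyte genes did (Cd68 and Csf1r). Of 9 fibroblast genes 3 did, with means of 9.43 for Col3a1, 2.55 for Thy1 and 2.49 for Cd34. Pdgfra, Col1a1, Col1a2, Dcn, Lum and Tcf21 lay below it. Among pericyte and smooth muscle genes 3 of 5 lay above it, with means of 9.95 for Acta2, 8.46 for Rgs5 and 3.11 for Cspg4. Among Schwann cell genes 1 of 2 did (Sox10, 3.17). Across the array 3650 of 22519 tested probe sets passed an adjusted p of 0.05 as higher on fibronectin and 3548 as lower (limma, Benjamini-Hochberg). With each sample centred on its median these counts were 5106 and 2584.

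The 5 promoters below are printed because their genes passed the test and the RefSeq table held them, 4 of genes that rose on fibronectin (Tnc, Sparc, Fbln1, Vcan) and 1 of a gene that fell (Thbs2). Each runs 5′ to 3′ from 250 bases before to 50 bases after the first listed transcript start (RefSeq, GRCm38.p6). Capitals mark the GC box (GGGCGG) and the TATA motif (TATAAA) on either strand, and no marked matches overlapped. The Tnc window held 1 match of each motif, the Vcan window 2 GC boxes, the Thbs2 window 1 TATA motif on the reverse strand, and the Sparc and Fbln1 windows held none.
Tnc, chr4:64046966-64047265, minus strand: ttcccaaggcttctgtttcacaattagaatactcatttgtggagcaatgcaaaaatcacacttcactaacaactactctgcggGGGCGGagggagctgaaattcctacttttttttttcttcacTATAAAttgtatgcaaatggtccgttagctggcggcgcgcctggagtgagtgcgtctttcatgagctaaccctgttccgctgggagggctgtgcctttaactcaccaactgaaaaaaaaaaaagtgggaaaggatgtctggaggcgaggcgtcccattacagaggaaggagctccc
Sparc, chr11:55420031-55420330, minus strand: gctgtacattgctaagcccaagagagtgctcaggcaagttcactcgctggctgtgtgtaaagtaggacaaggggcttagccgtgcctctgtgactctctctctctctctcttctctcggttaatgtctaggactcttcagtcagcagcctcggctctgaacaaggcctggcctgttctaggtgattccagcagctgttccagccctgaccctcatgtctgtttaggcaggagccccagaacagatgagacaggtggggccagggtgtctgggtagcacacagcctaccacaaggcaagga
Fbln1, chr15:85205699-85205998, plus strand: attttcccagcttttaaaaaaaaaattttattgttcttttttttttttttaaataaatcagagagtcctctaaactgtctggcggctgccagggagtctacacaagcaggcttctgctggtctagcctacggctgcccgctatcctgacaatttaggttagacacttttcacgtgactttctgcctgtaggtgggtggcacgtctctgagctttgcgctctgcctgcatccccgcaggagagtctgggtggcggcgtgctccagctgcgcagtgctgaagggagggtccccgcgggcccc
Vcan, chr13:89742463-89742762, minus strand: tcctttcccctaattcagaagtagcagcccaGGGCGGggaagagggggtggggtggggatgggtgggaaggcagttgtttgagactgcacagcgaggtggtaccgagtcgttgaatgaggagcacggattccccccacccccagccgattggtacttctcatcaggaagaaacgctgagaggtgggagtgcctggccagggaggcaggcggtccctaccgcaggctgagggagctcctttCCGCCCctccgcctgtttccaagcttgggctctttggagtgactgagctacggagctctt
Thbs2, chr17:14694213-14694512, minus strand: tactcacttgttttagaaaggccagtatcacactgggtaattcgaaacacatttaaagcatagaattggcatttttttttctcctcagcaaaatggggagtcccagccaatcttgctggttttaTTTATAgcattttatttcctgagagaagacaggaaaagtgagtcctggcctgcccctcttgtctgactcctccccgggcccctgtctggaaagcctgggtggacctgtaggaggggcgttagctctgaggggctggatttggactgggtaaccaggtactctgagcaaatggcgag

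The AP-1 motif (TGANTCA), the TEAD motif (GGAATG) and the CArG box were also searched on both strands, and none of these 5 windows held a match. Over all 32851 promoter windows of the table, 7.81% held the AP-1 motif, 14.7% the TEAD motif, 1.63% the CArG box, 35.7% the GC box and 13.6% the TATA motif. A match or its absence describes these letters in this window and was not tied to binding. A second listed start of Fbln1 gave an overlapping window with 2 GC box matches.

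On fibronectin the cells had higher signals for Thbs1, Vcan, Tnc, Fbln1 and Sparc, and lower signals for Thbs2 and for 1 of the 2 probe sets of Fn1. Rises reached 2.61-fold (Thbs1) and falls 1.62-fold (Thbs2). Of the 26 member probe sets 17 passed the filter on low signals and 9 did not. Of the 17, 11 rose, 3 fell and 3 did not pass, against a background of 16.2% of all tested probe sets that rose and 15.8% that fell (32.0% in either direction). Without that filter 11 rose and 2 fell, where 10.2% of all probe sets passed. Changes of at least 1.5-fold past the test were found in 8 of the 17, 7 higher and 1 lower, where the array as a whole had 1.46% higher and 2.94% lower (4.41% together). The median log2 change over the 17 was 0.48, beside 0.01 over all tested probe sets. The samples of the coatings did not overlap in 14 of the 17, where 47.7% of all tested probe sets did not. These counts take probe sets of the same gene separately, so their entries are not independent. By the brightest probe set of each gene, 5 of the 7 tested member genes were higher on fibronectin and 2 were lower. Over all tested genes 19.9% were higher and 20.2% lower. Among the 7, 4 passed with a 1.5-fold difference or more, beside 5.23% of all tested genes. That count depends on the choice of probe set. With all probe sets of a gene averaged, dim ones included, Thbs1 changed by 1.23 and Tnc by 0.97 on the log2 scale. Fbln1 then changed by 0.42, Vcan by 0.31, Sparc by 0.29 and Thbs2 by -0.50. Vcan and Fbln1 no longer reached 1.5-fold by this measure. In RNA from whole cultures, fewer cells of a type and less RNA per cell cannot be told apart.

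**Figure D1:**
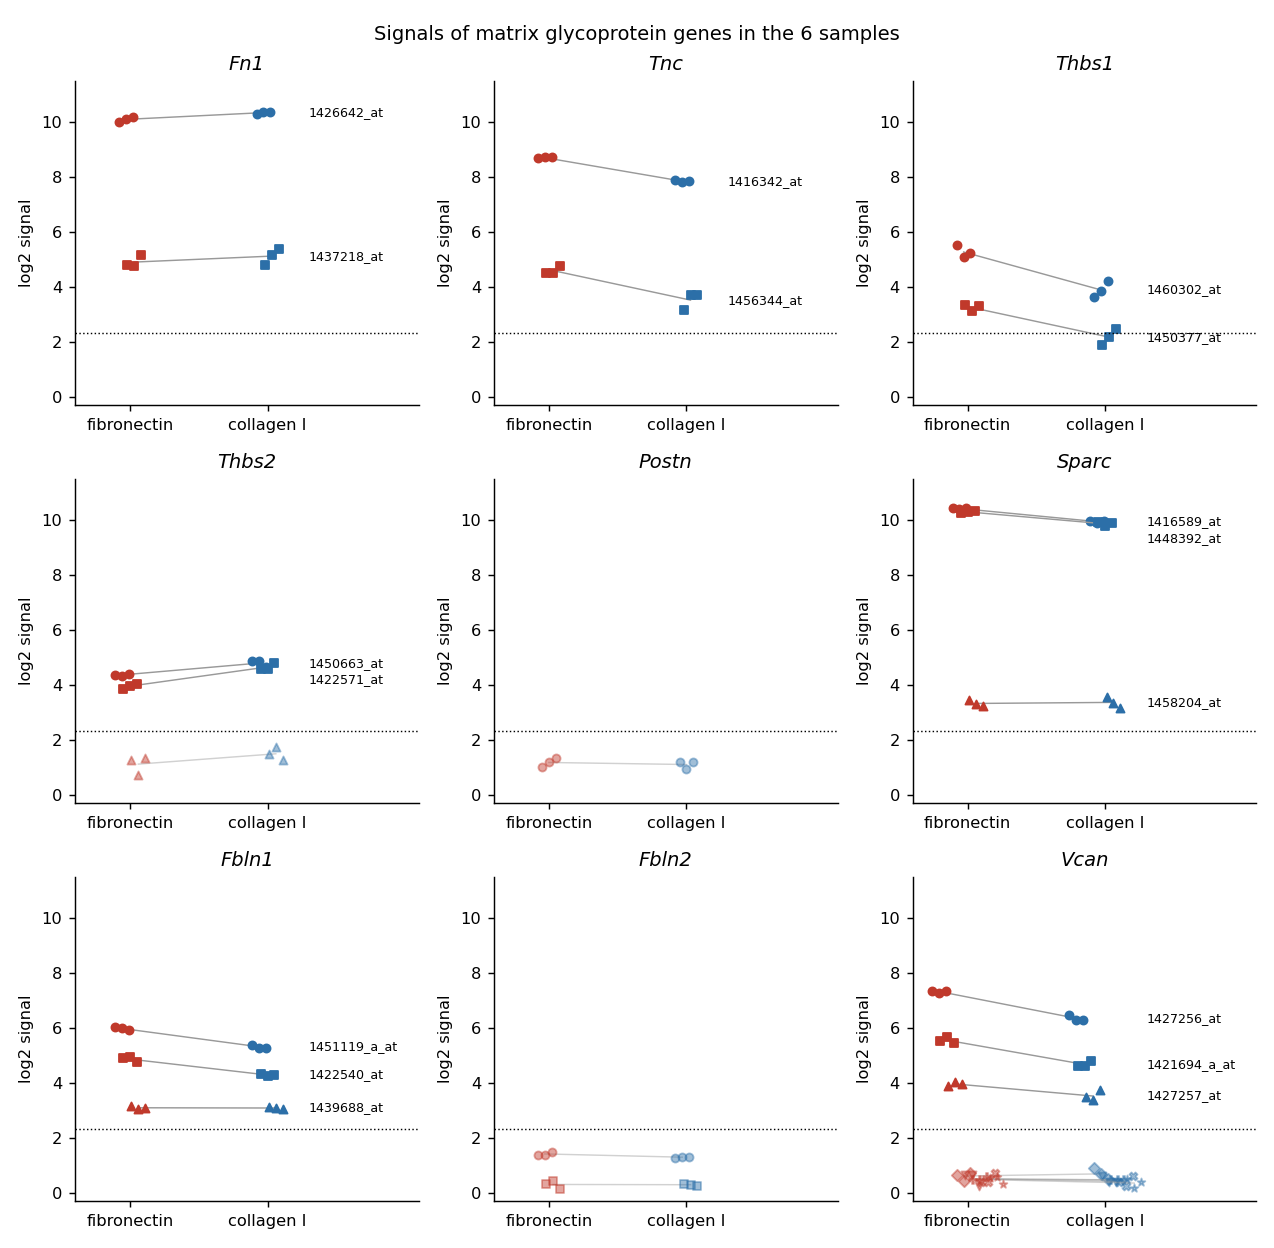
Log2 signal (y axis) of every member probe set in each of the 6 samples, fibronectin left (red) and collagen I right (blue), with 1 marker shape per probe set and a line joining the group means. The dotted line is the filter at 2.32, faded points lie below it on average, and the Thbs1 samples on fibronectin (5.09 to 5.52) all sit above those on collagen I (3.63 to 4.22).

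Fn1 encodes fibronectin itself, the protein that coated one set of dishes. Its probe set 1426642_at read 10.00, 10.13 and 10.18 in the fibronectin samples, against 10.32, 10.37 and 10.37 in the collagen I samples. The groups did not overlap, but the lowest collagen I sample lay only just above the highest fibronectin sample. The log2 change was -0.25 (SE 0.06, limma adjusted p = 0.0181). This call was lost without the brightness filter (adjusted p = 0.0672), with samples centred on their medians (0.0693), without collagen replicate 2 (0.0581) or 3 (0.0509) and without fibronectin replicate 1 (0.0521). Over all alternatives that kept the probe set, its adjusted p lay between 0.000712 and 0.0693, and its change stayed negative in each. The other Fn1 probe set, 1437218_at, read 4.81, 4.77 and 5.16 on fibronectin, against 4.82, 5.17 and 5.40 on collagen I. These groups overlapped, and its change of -0.22 had a 95% interval from -0.59 to 0.15 (adjusted p = 0.334). The mean of both probe sets changed by -0.23 and did not pass (adjusted p = 0.0887 over genes).

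Tnc encodes tenascin C, a hexameric glycoprotein that weakens adhesion to fibronectin and is known from regenerating muscle and developing tendon. Its probe set 1416342_at read 8.70, 8.72 and 8.72 on fibronectin, against 7.89, 7.82 and 7.86 on collagen I. The samples of each coating lay far closer together than the gap between the groups. The log2 change was 0.86 (SE 0.05, 95% interval 0.75 to 0.96, adjusted p = 5.85e-05), a 1.81-fold rise. The second probe set, 1456344_at, read 4.51, 4.52 and 4.78 on fibronectin, against 3.15, 3.71 and 3.73 on collagen I, and rose by 1.07 (SE 0.16, adjusted p = 0.00224). Collagen replicate 1 was the low sample of this probe set, and without it the change was 0.89. The changes of both Tnc probe sets differed by -0.22 in the direction of 1416342_at minus 1456344_at, which was within the spread of samples (exact permutation test, two-sided, p = 0.6).

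Thbs1 and Thbs2 encode thrombospondins 1 and 2, closely related trimeric glycoproteins that bind the receptor Cd36 and inhibit blood vessel growth. Thrombospondin 1 also releases TGF-beta from its latent form. The genes moved in opposite directions. Thbs1 probe set 1460302_at read 5.52, 5.09 and 5.23 on fibronectin, against 3.63, 3.85 and 4.22 on collagen I. Every fibronectin sample lay above every collagen I sample, although the collagen I samples were spread (SD 0.30). Thbs1 rose by 1.38 on the log2 scale (SE 0.16, adjusted p = 0.000868), which ranked 63 by size among the 22519 tested probe sets. The dimmer Thbs1 probe set, 1450377_at, read 3.35, 3.12 and 3.31 on fibronectin, against 1.88, 2.17 and 2.48 on collagen I, and rose by 1.08 (SE 0.14, adjusted p = 0.00147). Its collagen I mean of 2.18 lay below the filter, so it passed the filter only through its fibronectin samples (mean 3.26). Both the size of this rise and its p-value therefore rest on collagen I signals near the array's floor. It stays among the member probe sets counted above as higher, also at 1.5-fold.

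Thbs2 probe set 1450663_at read 4.36, 4.34 and 4.39 on fibronectin, against 4.85, 4.87 and 4.67 on collagen I. It fell by 0.43 on the log2 scale (SE 0.06, adjusted p = 0.00237), with no overlap. Probe set 1422571_at of the same gene read 3.84, 3.98 and 4.05 on fibronectin, against 4.57, 4.59 and 4.81 on collagen I, and fell by 0.70 (SE 0.08, adjusted p = 0.000969), or 1.62-fold. The Thbs2 probe set 1447862_x_at, of a type that can bind related transcripts, read 1.27, 0.74 and 1.35 on fibronectin, against 1.48, 1.73 and 1.27 on collagen I, below the filter and with overlap. The within-sample difference of Thbs1 minus Thbs2 was larger on fibronectin by 1.82 on the log2 scale (exact permutation test, two-sided, p = 0.1, the smallest that 3 against 3 samples allow). It lay between 1.65 and 2.04 when each sample was left out in turn. In all, 12 such pairs of probe sets were compared, 10 within a gene and 2 between paralogs, and adjusted p over the 12 was 0.15 at the lowest. The p of 0.1 was also reached by smaller differences, such as 0.31 between the Thbs1 probe sets and 0.27 between 1450663_at and 1422571_at of Thbs2.

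Sparc encodes osteonectin, a calcium- and collagen-binding matricellular protein that keeps cells rounded and guides collagen assembly. Probe set 1416589_at read 10.43, 10.40 and 10.44 on fibronectin, against 9.98, 9.90 and 9.95 on collagen I, and rose by 0.48 (SE 0.05, adjusted p = 0.000485). Probe set 1448392_at read 10.27, 10.30 and 10.32 on fibronectin, against 9.92, 9.79 and 9.88 on collagen I, and rose by 0.44 (SE 0.05, adjusted p = 0.00103). Both put all fibronectin samples above all collagen I samples, at 1.40-fold and 1.35-fold. The remaining probe set, 1458204_at, did not separate the coatings, with 3.47, 3.29 and 3.22 on fibronectin, against 3.56, 3.36 and 3.17 on collagen I (log2 change -0.04, 95% interval -0.29 to 0.21). The change of 1416589_at minus that of 1458204_at was 0.52 (exact permutation test, two-sided, p = 0.1, the smallest possible).

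Postn encodes periostin, a matricellular protein of tendon, periosteum and injured muscle that is made mainly by fibroblasts. Its only probe set, 1423606_at, read 1.01, 1.20 and 1.33 on fibronectin, against 1.18, 0.92 and 1.20 on collagen I. The samples overlapped, and all 6 lay below the filter, so Postn was not tested in the main fit.

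Fbln1 encodes fibulin 1, which binds fibronectin and the basement membrane, and its probe sets gave unequal answers. Probe set 1451119_a_at read 6.03, 5.98 and 5.91 on fibronectin, against 5.38, 5.27 and 5.27 on collagen I. It rose 1.59-fold (log2 change 0.67, SE 0.06, adjusted p = 0.00027), with no overlap. Probe set 1422540_at read 4.90, 4.92 and 4.76 on fibronectin, against 4.33, 4.25 and 4.27 on collagen I, a rise of 0.58 (SE 0.06, adjusted p = 0.000549). Probe set 1439688_at showed no such gap, with 3.17, 3.03 and 3.07 on fibronectin, against 3.12, 3.08 and 3.03 on collagen I (change 0.01, 95% interval -0.12 to 0.14). The change of 1451119_a_at exceeded that of 1439688_at by 0.66 (exact permutation test, two-sided, p = 0.1, the smallest possible). The same p was reached for 1451119_a_at and 1422540_at, whose changes differed by only 0.09, so it does not grade the size of a difference. Which Fbln1 transcripts each probe set reads was not analysed here.

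Fbln2 encodes fibulin 2, which binds fibronectin, basement membrane proteins and versican. Both its probe sets lay below the filter in every sample. Probe set 1423407_a_at read 1.39, 1.36 and 1.48 on fibronectin, against 1.27, 1.31 and 1.29 on collagen I, groups that did not overlap. Among probe sets below the filter 11.4% did not overlap. Probe set 1438375_at read 0.32, 0.44 and 0.14 on fibronectin, against 0.33, 0.28 and 0.25 on collagen I, with overlap. The change of Fbln1 exceeded that of Fbln2, by their brighter probe sets, by 0.55 (exact permutation test, two-sided, p = 0.1, the smallest possible), a difference that rests on Fbln2 signals near the floor.

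Vcan encodes versican, whose chondroitin sulfate chains and hyaluronan binding make a loose, hydrated matrix around dividing and migrating cells. Probe set 1427256_at read 7.35, 7.26 and 7.35 on fibronectin, against 6.48, 6.27 and 6.29 on collagen I. It rose 1.97-fold (log2 change 0.98, SE 0.07, adjusted p = 0.000148), and every fibronectin sample stood clear of the collagen I samples. Probe set 1421694_a_at read 5.51, 5.66 and 5.46 on fibronectin, against 4.60, 4.60 and 4.79 on collagen I, and rose by 0.88 (SE 0.08, adjusted p = 0.000277). Probe set 1427257_at read 3.89, 4.02 and 3.96 on fibronectin, against 3.47, 3.36 and 3.72 on collagen I, and rose by 0.44 (SE 0.09, adjusted p = 0.0109). The change of 1427256_at was 0.54 larger than that of 1427257_at (exact permutation test, two-sided, p = 0.1, the smallest possible). The other 5 Vcan probe sets averaged between 0.41 and 0.65 over the 6 samples, below the filter, with overlapping groups in each.

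**Figure D2:**
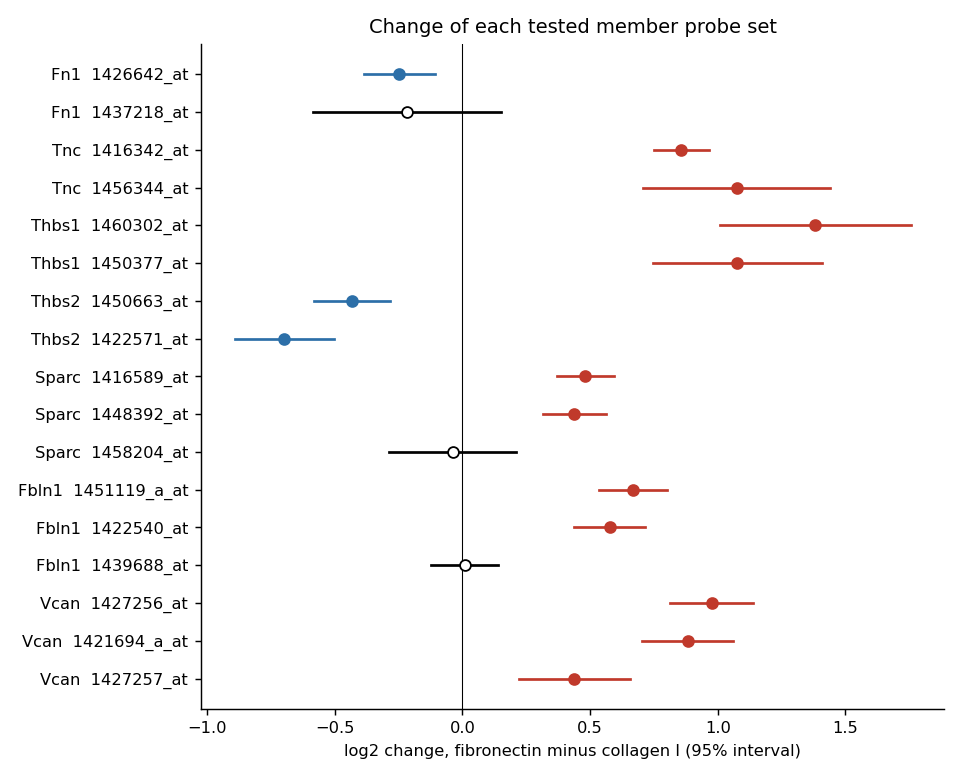
Log2 change, fibronectin minus collagen I (x axis), with its 95% interval for the 17 tested member probe sets (y axis), red for those that rose, blue for those that fell and open for those that did not pass. Thbs1 1460302_at has the interval farthest to the right (1.01 to 1.76), and those of Sparc 1458204_at and Fbln1 1439688_at span 0.

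**Figure D3:**
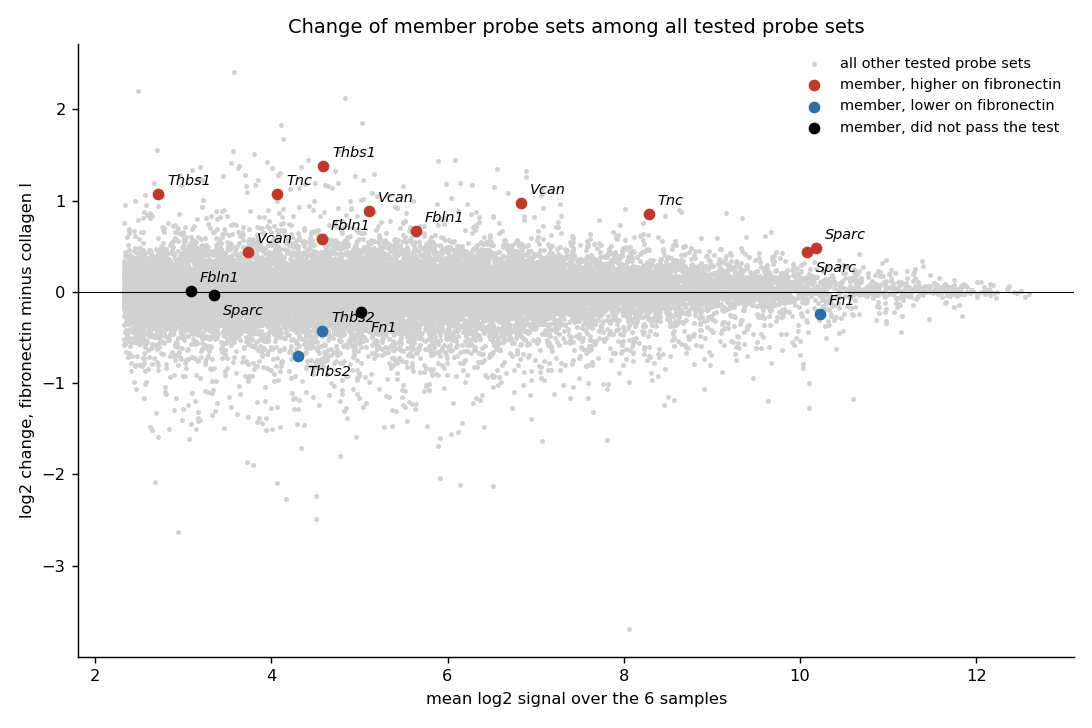
Log2 change, fibronectin minus collagen I (y axis), against the mean log2 signal over the 6 samples (x axis) for all 22519 tested probe sets (grey) and the 17 member probe sets (coloured and named). Members that rose reach up to 1.38 for Thbs1, while the 3 that did not pass lie between -0.22 and 0.01.

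Genes whose centred log2 profile over the 6 samples lay closest to that of a member (smallest Euclidean distance) were listed as a description of the data. For Thbs1 they were Adm, Cth and Ak4 (distances 0.277 to 0.363), for Tnc Dixdc1, Pdk1 and Fbxo32 (0.126 to 0.152) and for Vcan Anxa3, Galnt18 and Dixdc1 (0.168 to 0.200). Fbln1 lay closest to Lpl, Socs3 and Apcdd1, Sparc to Ttk, E2f7 and Haus6, Thbs2 to Avl9, Arhgap18 and B2m, and Fn1 to Slc8a1, Fam120c and Mon2. With 2 coatings, these profiles mostly share the size of the gap between the groups.

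Other genes of the same matrix moved both ways. From 6 lists of related genes, 66 of 126 measured genes were bright enough to test, and 15 rose and 19 fell, where 19.9% of all tested genes rose and 20.2% fell (40.0% in either direction). Their median log2 change was -0.04, beside 0.00 over all genes tested. These values use the brightest probe set of each gene. Among 12 tested other matricellular genes 3 rose and 4 fell. Ccn1, an integrin-binding protein of the CCN family, rose 2.19-fold, with 7.63 ± 0.09 on fibronectin and 6.50 ± 0.15 on collagen I (SD, n = 3 each; adjusted p = 7.2e-05). Its relative Ccn4 rose 1.64-fold, whereas Ccn3 fell 2.36-fold, with 4.87 ± 0.17 on fibronectin and 6.11 ± 0.20 on collagen I. Smoc2, a calcium-binding relative of Sparc, fell 2.18-fold. Ccn2 lay below the filter.

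Of 9 tested fibulins and elastic fibre genes 2 rose and 2 fell, and 1 rose without any one of the fibronectin samples or without collagen replicate 2 or 3. Emilin1, an elastic fibre glycoprotein, fell 1.86-fold, and Ltbp3, which anchors latent TGF-beta in the matrix, fell by 0.58 on the log2 scale. Its relative Ltbp1 rose by 0.35, and Fbln5 rose by 0.25 (adjusted p = 0.0375), a call lost with its probe sets averaged (adjusted p = 0.0819). Of 9 tested other glycoproteins and proteoglycans 1 rose, Nid2 of the basement membrane (1.66-fold), and 3 fell. These were Bgn, the small proteoglycan biglycan (1.81-fold), Srgn, a granule proteoglycan (a log2 change of -0.42, with a fibronectin mean of 2.14 below the filter), and Npnt, a ligand of integrin alpha 8 (1.19-fold, not past the test with its probe sets averaged, adjusted p = 0.0569).

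Among 16 tested receptors of the members 5 rose and 3 fell. The number that rose was 2 without the brightness filter or without fibronectin replicate 1, 3 with the filter at the 75th percentile and 8 with samples centred, and 5 fell without collagen replicate 1. Egfr, which the EGF-like repeats of tenascin C can bind, rose by 1.67 on the log2 scale, or 0.55 with its probe sets averaged. Itga4, an integrin subunit that binds fibronectin, rose by 0.53, a call lost with its probe sets averaged (0.11, adjusted p = 0.306). The calls of Cd47 and Itga8 were lost in the same way (adjusted p = 0.125 and 0.0944), and Itga8 had a collagen I mean of 2.21, below the filter. Sdc3, a syndecan, fell by 0.51, and Lrp1, which takes up thrombospondins, fell by 0.29. Cd44, a receptor for hyaluronan, averaged 10.29 on fibronectin and 10.28 on collagen I, and Cd36 and Itgb3 lay below the filter.

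Of 11 tested genes that make, bind or cut hyaluronan or versican 1 rose and 4 fell, and 2 rose without collagen replicate 3 or with samples centred. Chst11, which sulfates chondroitin, fell 1.76-fold, and Chpf, which polymerises it, fell 1.22-fold. Adamts4, a protease that cuts versican, fell 1.45-fold, and Hmmr, a hyaluronan-binding protein that is also a mitotic spindle protein, rose 1.35-fold. Of 9 tested proteases and inhibitors 3 rose and 3 fell, and 1 rose without collagen replicate 3, fibronectin replicate 1 or fibronectin replicate 2, or without the brightness filter. The collagenase Mmp13 fell by 2.08 on the log2 scale to a fibronectin mean of 1.64, below the filter. Timp2, an inhibitor of metalloproteinases, fell 1.78-fold, Mmp14, which cuts fibronectin, fell 1.23-fold, and the plasminogen activator Plat rose 1.32-fold.

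**Figure D4:**
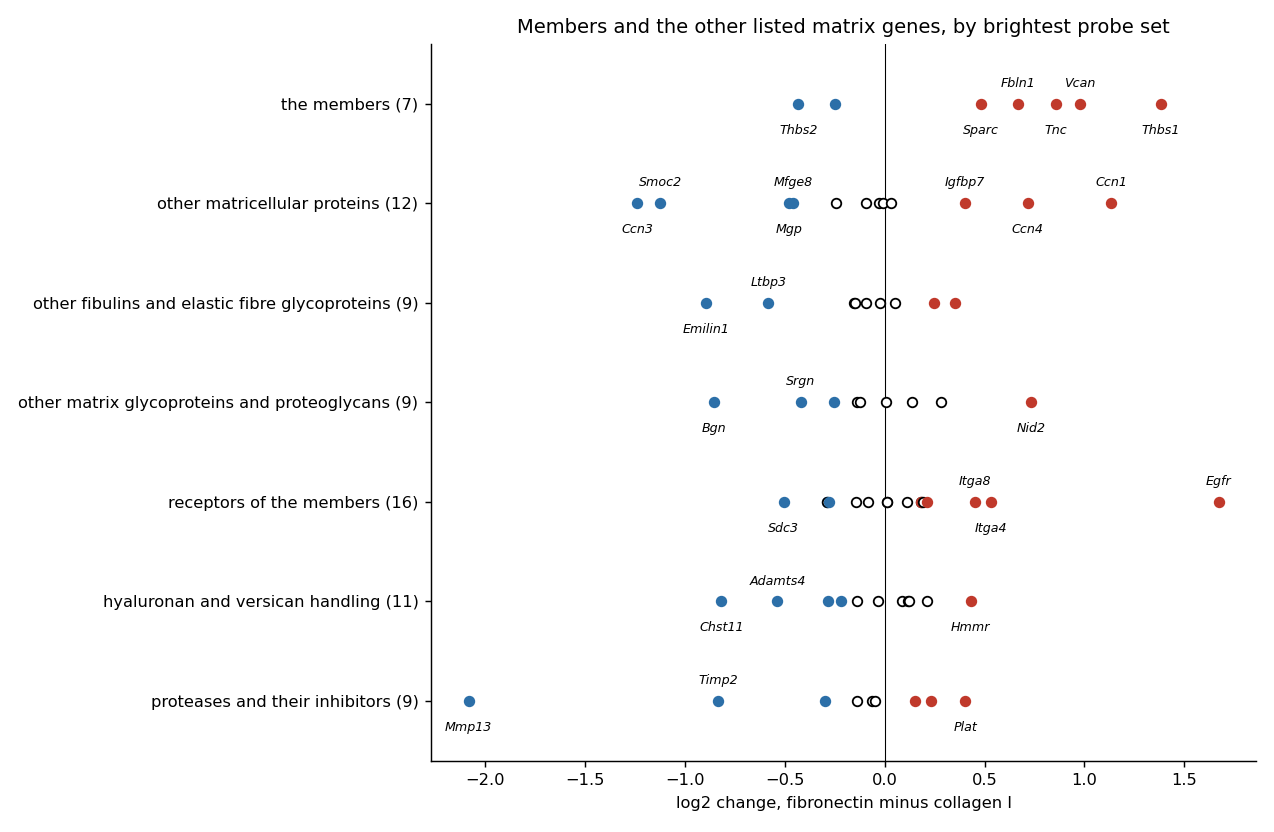
Log2 change, fibronectin minus collagen I (x axis), of the brightest probe set of each tested gene, for the 7 tested members and 6 lists of related genes (y axis, number of tested genes in brackets). Filled points passed an adjusted p of 0.05 (red higher, blue lower on fibronectin), and genes beyond 0.38 in either direction are named. Of the members 5 lie right of 0 and 2 left of it, while each of the other lists has filled points on both sides.

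Some markers of myoblasts and of other cells moved with the coating too. The myoblast list had a summed linear signal of 2368 to 2476 in the fibronectin samples and 2531 to 2601 in the collagen I samples. Cdh15 rose by 0.24 on the log2 scale, and Des fell by 0.23. Ncam1 fell by 0.16, a call lost with its probe sets averaged (adjusted p = 0.084). Pax7 did not pass by its brightest probe set but fell by 0.25 with its probe sets averaged (adjusted p = 0.0122). The fibroblast list had a summed linear signal of 743 to 799 in the fibronectin samples and 630 to 693 in the collagen I samples, carried mainly by Col3a1 (log2 change 0.21, not past the test with its probe sets averaged, adjusted p = 0.072). Cd34 had log2 means of 2.79 on fibronectin and 2.20 on collagen I, and so passed the filter only through its fibronectin samples, and Thy1 fell by 0.32. The leukocyte list summed to 28.3 to 34.0 on fibronectin and 41.2 to 48.9 on collagen I. Of its tested genes Cd68 was lower by 1.28, while Csf1r changed by -0.03 and did not pass (limma adjusted p = 0.822). Ptprc, Adgre1, Itgam, Cd3e and Cd79a lay below the filter. The pericyte and smooth muscle list summed to 1284 to 1356 on fibronectin and 1441 to 1494 on collagen I, with Rgs5 lower by 1.24 and Acta2 higher by 0.21 (not past the test with its probe sets averaged, adjusted p = 0.342). The part of these markers in the changes of the members was not tested.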

How the data were processed

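Expression was measured in 6 myoblast samples, 3 on fibronectin and 3 on collagen I, grouped by the sample titles. Per the labels' protocols, cells were trypsinised and pelleted, and labelling with biotin used 300 ng of RNA. The authors deposited log2 signals for 45101 probe sets. The submitters' processing notes name RMA (background correction, quantile normalisation and probe set summary) and Affymetrix Expression Console. The sources used here give no versions, settings or scan dates, so no batch was tested.

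Values were used as deposited, without the 64 control probe sets. Gene names came from the platform annotation, updated through GRCm38.p6 (18032 of 18194 gene identifiers found), and 34945 probe sets had 1 gene. Promoters of 8 of the 10 members were in the RefSeq table. Probe sets were tested if their mean over all samples reached 2.32, the median over probe sets. limma 3.58.1 in R 4.3.3 was fitted to all of them (lmFit, eBayes, two-sided, fibronectin minus collagen, 4 residual and 3.58 prior degrees of freedom), with Benjamini-Hochberg adjustment and a threshold of 0.05. A second fit used the brightest probe set per gene (10950 genes). The limma step was also run on simulated data with far fewer changed probe sets than were called here. That run checks the code and cannot vouch for the calls in these data. Figures used Python 3.11.15 and matplotlib 3.10.9.

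The members and lists were chosen with earlier results of these data known. All member probe sets are named, and of each list up to 4 tested genes with the smallest p, besides markers. A few other list genes (Ccn2, Cd44, Cd36, Cd47, Itga8, Itgb3) were named after their values were seen. Replicate numbers are shared by both coatings. The deviations of same-numbered samples correlated at 0.12, -0.0042 and 0.077, and only 1 of 3 was over 0.1, so the numbers were not taken to pair samples. Alternatives were other brightness filters, normalisations, variance models, thresholds, the replicate block, averaged probe sets and leaving out each sample.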

Additional observations from a re-analysis of the deposited data

How the results depend on the processing

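Of the 14 member probe sets past the threshold, 13 kept their call in each of 13 alternative fits that still tested them, and the Fn1 probe set 1426642_at lost it in 5. The filter at the 75th percentile left 5 member probe sets higher and 1 lower and 1 member gene lower, since it tests fewer. An adjusted p of 0.01 gave 1681 higher and 1966 lower probe sets over the array, 9 higher list genes and 1 lower member gene. At that threshold the member probe sets Vcan 1427257_at (limma adjusted p = 0.0109) and Fn1 1426642_at (0.0181) lost their calls. Requiring 1.5-fold as well gave 329 higher and 663 lower probe sets, 7 higher and 1 lower member probe sets, 0 lower member genes, and 4 higher and 7 lower list genes. Without the brightness filter 2080 probe sets and 9 list genes were higher, and averaged probe sets gave 1 lower member gene, Thbs2, since Fn1 (-0.23) did not pass. The filter at the 75th percentile gave 9 higher list genes. Leaving out 1 sample gave 9 to 15 higher and 18 to 24 lower list genes, the fewest higher without fibronectin replicate 1. Sparc 1458204_at, not past the test, had a change of 0.017 with samples centred and of -0.13 to 0.060 with 1 sample left out, and Fbln1 1439688_at had -0.031 to 0.040. The difference between the Fn1 probe sets lay between -0.15 and 0.11 with 1 sample left out. The cause was not tested in these cases. With the replicate number as a block 11 member probe sets rose and 3 fell, as without it, over the array 3384 rose and 3350 fell, and of 6 samples 3 correlated best with their own number. Removing probe sets named _s_at or _x_at left the member counts at 11 and 3. No tested member probe set carries such a name, so this step could not test whether members bind related transcripts. Probe sets with a mean under 2.32 were tested only in the fit without the brightness filter. There Postn (limma adjusted p = 0.744) and Fbln2 (0.304 for 1423407_a_at and 0.962 for 1438375_at) did not pass. Their signals near the array's floor limit what can be said of both genes.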
